A study of Mus musculus with 8 samples.

Results

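The 33 genes described here encode the machinery that brings newly made proteins to the endoplasmic reticulum (ER), moves them across or into its membrane and cuts off their signal peptides. They were listed by symbol for their known roles, with earlier results of these data known, and all 33 were found among the 27534 genes of the deposited table. They fall into 8 groups by role, which are the signal recognition particle (SRP, 5 genes), the β subunit of its receptor (1 gene), the Sec61 channel (4 genes), Sec62 and Sec63 (2 genes), the translocon-associated protein complex TRAP (4 genes), the TRAM proteins (2 genes), signal peptidase (5 genes) and the ER membrane protein complex EMC (10 genes). The samples were pancreatic islets of C57BL/6J mice, cultured for 72 h in RPMI medium with serum and either 20 mM glucose (high glucose, 4 libraries) or 7.5 mM glucose (low glucose, 4 libraries). The labels give no genotype, age or sex, and do not say whether the libraries came from separate mice or islet preparations, so p-values measure only the spread between these libraries, which may be technical. The series concerns IRE1α, a sensor of ER protein folding, and the question put to these libraries is how islet transcripts respond to long exposure to high glucose.

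A secretory protein is recognised while it is being made. SRP binds its signal sequence as it leaves the ribosome, slows translation and docks at the SRP receptor, the ribosome is passed to the Sec61 channel, and signal peptidase removes the signal peptide on the luminal side. TRAP and TRAM help signal sequences that open the channel poorly, and preproinsulin, the main product of the β cell, is among the proteins known to depend on TRAP. The EMC works beside this route and inserts membrane proteins, among them tail-anchored proteins and the first membrane-spanning segments of many receptors and transporters.

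Libraries held 19543045 to 24949515 counts. The insulin genes Ins1 and Ins2 took 17.3% to 21.7% of counts in high and 17.2% to 22.7% in low glucose, and Gcg, which marks α cells, was at 11290 to 28194 CPM (counts scaled to the library total with TMM factors) over all 8 libraries. In bulk RNA, more cells of a type and more RNA per cell cannot be told apart. The share of counts in 24 acinar marker genes was 0.460% to 2.58% in high and 0.187% to 1.55% in low glucose, and was higher in high glucose in all 4 same-number pairs. So were the share of the 2 δ cell markers (0.231% to 0.375% in high and 0.155% to 0.276% in low glucose) and that of the 6 β cell markers (20.3% to 25.4% and 19.3% to 25.3%). The β cell share was nearly tied in pair 2 (25.36% against 25.31%), and of its 6 markers 1 rose and 2 fell (edgeR, adjusted p under 0.05). The α cell, PP cell and macrophage shares were higher in 1 of 4 pairs. Plasma and B cell markers were higher in 2, and duct, fibroblast and endothelial markers in 3. Single markers did not all follow these shares. The α cell marker Ttr was at 1145 to 1656 CPM in high and 583 to 1106 CPM in low glucose. Of the 4 α cell markers 1 rose and none fell. The δ cell marker Hhex was at 12.9 to 16.0 CPM in high and 13.1 to 19.9 CPM in low glucose, and neither of the 2 δ cell markers was called. The part of these shares in the results was not tested. None of the acinar markers was at 0 (3 counts or fewer in every library). High glucose replicate 1 held more fibroblast and stellate marker counts (0.113%) than any other library (up to 0.0306%), and more of the plasma and B cell markers (0.0268% against up to 0.00528%). Low glucose replicate 2 had the highest level of its group for 25 of the 33 genes, and high glucose replicate 2 for 20 of 33.

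Promoter sequence from RefSeq (GRCm38.p6, from 250 bases before to 50 after a transcript start) was matched by symbol for 23 of the 33 genes; the others are Srp19, Srp68, Sec61a1, Ssr2, Tram1, Spcs3, Sec11c, Emc2, Emc8 and Mmgt1. The 6 letters CCACGT, which are part of sites that the ER stress factors ATF6 and XBP1 are known to bind, were found on either strand in 5 of these 23 genes (21.7%) and in 8.31% of all 32851 windows of that table, which include several starts for some genes. The 5 genes were Srprb, Sec63, Ssr1, Ssr3 and Spcs1. They are shown because all 5 are among the 14 of these 23 genes that rose in high glucose. In all 22 of the 33 genes rose, so those without promoter sequence were not searched. None of the 9 genes that were not called held the 6 letters. With 8.31% of all windows holding them, 9 genes are too few for this to be a contrast. This is a description, since the motif was picked with the gene results known and after 6 motifs had been searched. Its share among all genes that rose or were not called was not measured, and binding by either factor was not tested. CCACGT is marked in capitals below, on the gene's strand.

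Srprb (chr9:103202084-103202113, minus strand): tggagcctagagCCACGTaactttggcggc
Sec63 (chr10:42761376-42761495, plus strand): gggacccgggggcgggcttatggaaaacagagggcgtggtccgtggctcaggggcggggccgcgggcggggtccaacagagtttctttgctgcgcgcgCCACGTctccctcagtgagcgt
Ssr1 (chr13:37994264-37994293, minus strand): cgccaccgccggCCACGTgatctcccggcc
Ssr1 (chr13:37994217-37994246, minus strand): ggcgcttagaggCCACGTcgacggtggcgg
Ssr3 (chr3:65392684-65392803, minus strand): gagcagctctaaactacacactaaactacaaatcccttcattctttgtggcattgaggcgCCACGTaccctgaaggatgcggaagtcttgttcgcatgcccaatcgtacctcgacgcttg
Spcs1 (chr14:31001709-31001738, minus strand): gctctgcagcagCCACGTagggccacaacc

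In Srprb, Ssr1 and Spcs1 only 30 bases around each match are given, because annotated exons reach into the stretch. The first Ssr1 match overlaps CACGTG, the E-box sequence, which 7.15% of all windows and 2 of the 23 genes (Sec62 and Ssr1) held. The shorter CCACG, which CCACGT contains, was in 13 of 23 genes against 32.8% of all windows. No match was found in these 23 genes for TGACGTGG, for the ER stress element II (ATTGG and CCACG 1 base apart) or for the ER stress element (CCAAT and CCACG 9 bases apart), which 0.676%, 0.0365% and 0.119% of all windows held.

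Transcripts of the core route into the ER rose in high glucose, while most EMC transcripts were not called. Of the 33 genes, 22 rose, none fell and 11 were not called (edgeR's quasi-likelihood test with Benjamini-Hochberg adjustment over the 15442 genes tested, adjusted p under 0.05). Over all genes tested, 13.1% rose and 11.9% fell, and the median log2 fold change was -0.01, against 0.52 over the 33 genes. All 33 genes had at least 39 counts in every library, so none was tested only because of the group in which it was high. Outside the EMC 19 of 23 genes rose, with a median log2 fold change of 0.65. Within the EMC 3 of 10 rose, with a median of 0.12. No test was made of the difference between these lists.

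The 33 genes together took 0.606% to 0.641% of counts in the high glucose libraries and 0.407% to 0.426% in the low glucose libraries. In 21 of 33 genes all 4 high glucose libraries lay above all 4 low glucose libraries, which 13.7% of all genes tested showed, and in none were all lower. Only 3 genes, Ssr4, Sec11c and Spcs1, rose at least 2-fold, as did 3.46% of all genes tested. The authors' deposited table listed the same 22 genes as higher at an adjusted p under 0.05. At the unadjusted threshold of 0.05 edgeR found none of the 33 lower, and neither DESeq2 nor limma-voom called any lower. With the replicate number as a block, 24 of 33 rose, as did 18.9% of all genes, the additions being Srp14 (adjusted p = 0.0128) and Sec62 (adjusted p = 0.0344). With library size alone as scaling, 20 of 33 rose and none fell, while 10.4% of all genes rose.

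**Figure D1:**
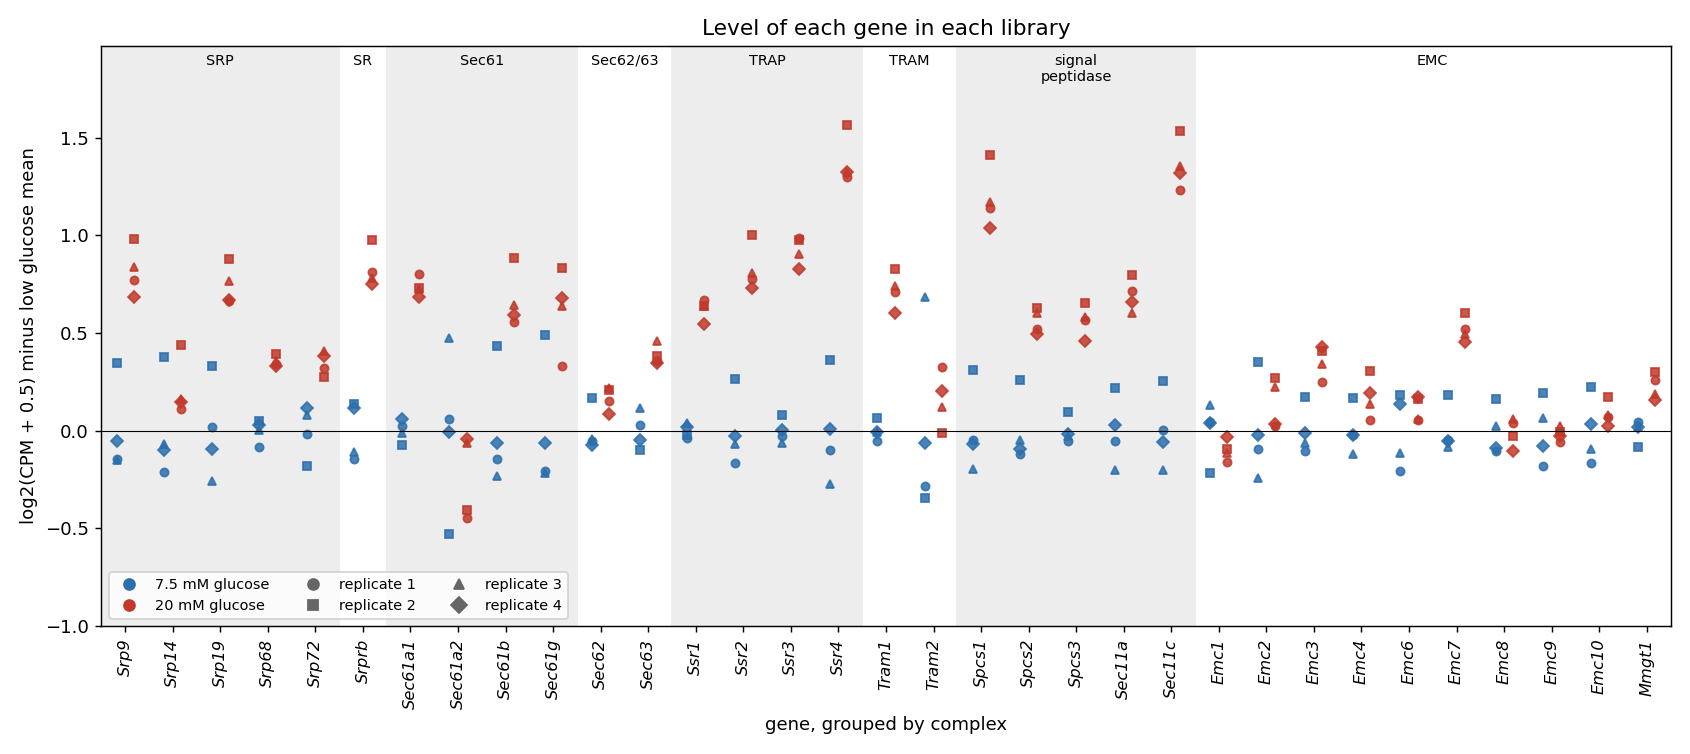
Level of each of the 33 genes in each of the 8 libraries, as log2(CPM + 0.5) minus the mean of the 4 low glucose libraries (vertical axis), with genes grouped by complex (horizontal axis; SR is the SRP receptor). Red symbols are 20 mM and blue symbols 7.5 mM glucose, and the symbol shape gives the replicate number. The red symbols lie clear above the blue for all TRAP and signal peptidase genes and mix with the blue for most EMC genes.

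Of the SRP subunits, 4 of 5 rose. Srp9, which with Srp14 forms the domain that slows translation (ENSMUSG00000026511, GRCm38 chromosome 1, 182124737 to 182132407), was at 160, 185, 167 and 151 CPM in the high glucose libraries 1 to 4. In low glucose it was at 84.3, 119, 84.1 and 89.9 CPM. Every high glucose library was above every low glucose one, although low glucose replicate 2 stood above the rest of its group, and the rise was 1.76-fold (adjusted p = 0.000742, edgeR). Srp14, its partner, was at 91.5, 115, 94.8 and 94.0 CPM in high and 73.2, 110, 80.8 and 79.2 CPM in low glucose. The groups overlapped only through low glucose replicate 2, and the log2 fold change of 0.20 ± 0.13 (SE) was not called (adjusted p = 0.287, edgeR). Without that library Srp14 passed, at a log2 fold change of 0.35 (adjusted p = 0.0125, edgeR).

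Srp19, which the particle needs for its assembly, rose 1.67-fold with 26.1 ± 4.72 CPM in low and 43.8 ± 3.18 CPM in high glucose (errors on group means are SDs of the 4 libraries). Srp68 and Srp72 bind the particle's RNA as a pair, and rose by like amounts. Srp68 went from 126 ± 5.03 to 161 ± 2.84 CPM, a 1.28-fold rise (adjusted p = 0.00196, edgeR). Srp72 went from 198 ± 17.9 to 252 ± 10.3 CPM, a 1.27-fold rise (adjusted p = 0.0101, edgeR), which did not pass with library size alone as scaling (adjusted p = 0.0768). Exon bases of Srp9 are shared with the pseudogene Gm17968 on the opposite strand (14.1%). No counts were found for Gm17968, either because it had none or because it was not listed.

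The SRP receptor is anchored in the ER membrane by its β subunit, a GTPase that Srprb encodes (chromosome 9, 103188032 to 103202137). Srprb was at 71.6, 80.4, 70.2 and 68.6 CPM in the high and 36.7, 44.6, 37.6 and 44.0 CPM in the low glucose libraries. The groups lay far apart, with a rise of 1.79-fold (adjusted p = 9.16e-05, edgeR). The receptor's α subunit, Srpr, which is not among the 33 genes, was at 753 ± 27.5 against 470 ± 9.65 CPM and rose 1.60-fold.

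The main channel subunits rose together. Sec61a1 encodes the pore (ENSMUSG00000030082, chromosome 6, 88503579 to 88518905) and was at 466, 445, 443 and 431 CPM in high against 272, 254, 266 and 279 CPM in low glucose. The spread within each group was small beside the gap, and the rise was 1.67-fold (adjusted p = 3.94e-05, edgeR). Sec61b, a small subunit with a single membrane span, was at 217, 272, 230 and 222 CPM in high and 133, 199, 126 and 141 CPM in low glucose. The rise was 1.57-fold (adjusted p = 0.00726, edgeR), and low glucose replicate 2 again came nearest to the high glucose group. Sec61g, the other small subunit, was at 137, 195, 170 and 175 CPM in high and 94.2, 153, 93.5 and 104 CPM in low glucose. Here the groups overlapped, as low glucose replicate 2 exceeded high glucose replicate 1. Its 1.52-fold rise passed (adjusted p = 0.0218, edgeR), but was lost when any single library other than high glucose replicate 1 and low glucose replicate 2 was left out (adjusted p from 0.0512 to 0.0682), while the block gave 8.03e-05.

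Sec61a2, the second pore gene, was the only channel gene that was not called. It was at 7.22, 7.43, 9.57 and 9.70 CPM in high and 10.5, 6.80, 14.1 and 9.99 CPM in low glucose, with full overlap of the groups and a log2 fold change of -0.29 ± 0.21 (SE, adjusted p = 0.351, edgeR). Sec61a2 shares 19.9% of its exon bases with Nudt5 on the opposite strand, and since the strand setting of the counting is not given, its value is uncertain.

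Sec62 and Sec63 sit beside the channel and help precursors that enter after translation, and Sec63 carries the domain that recruits the chaperone BiP. Sec63 rose 1.31-fold, from 171 ± 11.3 to 223 ± 8.06 CPM (adjusted p = 0.00285, edgeR). Sec62 was at 201, 209, 211 and 192 CPM in high and 175, 203, 176 and 172 CPM in low glucose. It was higher in high glucose in each of the 4 same-number pairs, but the groups overlapped through low glucose replicate 2, and the log2 fold change of 0.16 ± 0.08 (SE) was not called (adjusted p = 0.150, edgeR). Without that library it passed (adjusted p = 0.0186), so that both genes of this group were then higher.

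All 4 TRAP subunits rose, with no overlap between groups for any of them. Ssr4, the δ subunit (ENSMUSG00000002014, chromosome X, 73787028 to 73790830), was at 504, 607, 514 and 513 CPM in high and 191, 263, 169 and 206 CPM in low glucose. It rose 2.58-fold, which with the 2.57-fold of Sec11c was the largest change of the 33 genes (log2 fold change 1.37 ± 0.13, SE; adjusted p = 5.58e-05, edgeR). Ssr3, the γ subunit, was at 616, 613, 583 and 554 CPM in high and 306, 330, 298 and 313 CPM in low glucose, so that each group spanned a narrow range. Ssr2, the β subunit, rose 1.77-fold from 172 ± 22.98 to 305 ± 26.0 CPM. Ssr1, the α subunit, rose 1.54-fold from 303 ± 7.53 to 467 ± 17.1 CPM. The 4 log2 fold changes thus ran from 0.62 to 1.37 within a complex whose subunits act together. Ssr2 shares 12.8% of its exon bases with the pseudogene Gm10704, which had 2 counts over all libraries.

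TRAM1 is a membrane protein that touches signal sequences inside the channel. Its gene Tram1 rose 1.65-fold, from 273 ± 9.48 to 450 ± 29.0 CPM (adjusted p = 7.56e-05, edgeR). Its paralog Tram2 was near 3 CPM, at 3.61, 2.75, 3.06 and 3.27 CPM in high and 2.20, 2.09, 4.78 and 2.64 CPM in low glucose. The groups overlapped and no direction held, since the log2 fold change of 0.12 ± 0.27 (SE) changed sign without low glucose replicate 1 or 2.

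All 5 signal peptidase genes rose, again with no overlap for any of them. Sec11c, a catalytic subunit (ENSMUSG00000024516, chromosome 18, 65800549 to 65817665), was at 212, 261, 230 and 225 CPM in high and 90.0, 107, 77.8 and 86.0 CPM in low glucose. The lowest high glucose library was thus well above the highest low glucose one (log2 fold change 1.36 ± 0.11, SE; adjusted p = 1.65e-05, edgeR). Sec11a, the alternative catalytic subunit, was at 92.2, 97.8, 85.4 and 88.6 CPM in high and 54.1, 65.2, 48.7 and 57.2 CPM in low glucose, a 1.62-fold rise.

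The accessory subunits of signal peptidase differed in size of change. Spcs1, which is known to take part in choosing substrates (chromosome 14, 30999826 to 31001672), was at 219, 264, 223 and 203 CPM in high and 95.8, 123, 86.3 and 94.5 CPM in low glucose. It rose 2.28-fold (adjusted p = 7.66e-05, edgeR). Spcs2 and Spcs3 rose less, 1.47-fold from 266 ± 34.4 to 391 ± 17.1 CPM and 1.48-fold from 334 ± 15.3 to 495 ± 27.7 CPM. Spcs1 shares 16.3% of its exon bases with Glt8d1 on the opposite strand, so its value is uncertain, and Spcs3 and Sec11a share 2.16% and up to 4.68% with neighbouring genes.

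**Figure D2:**
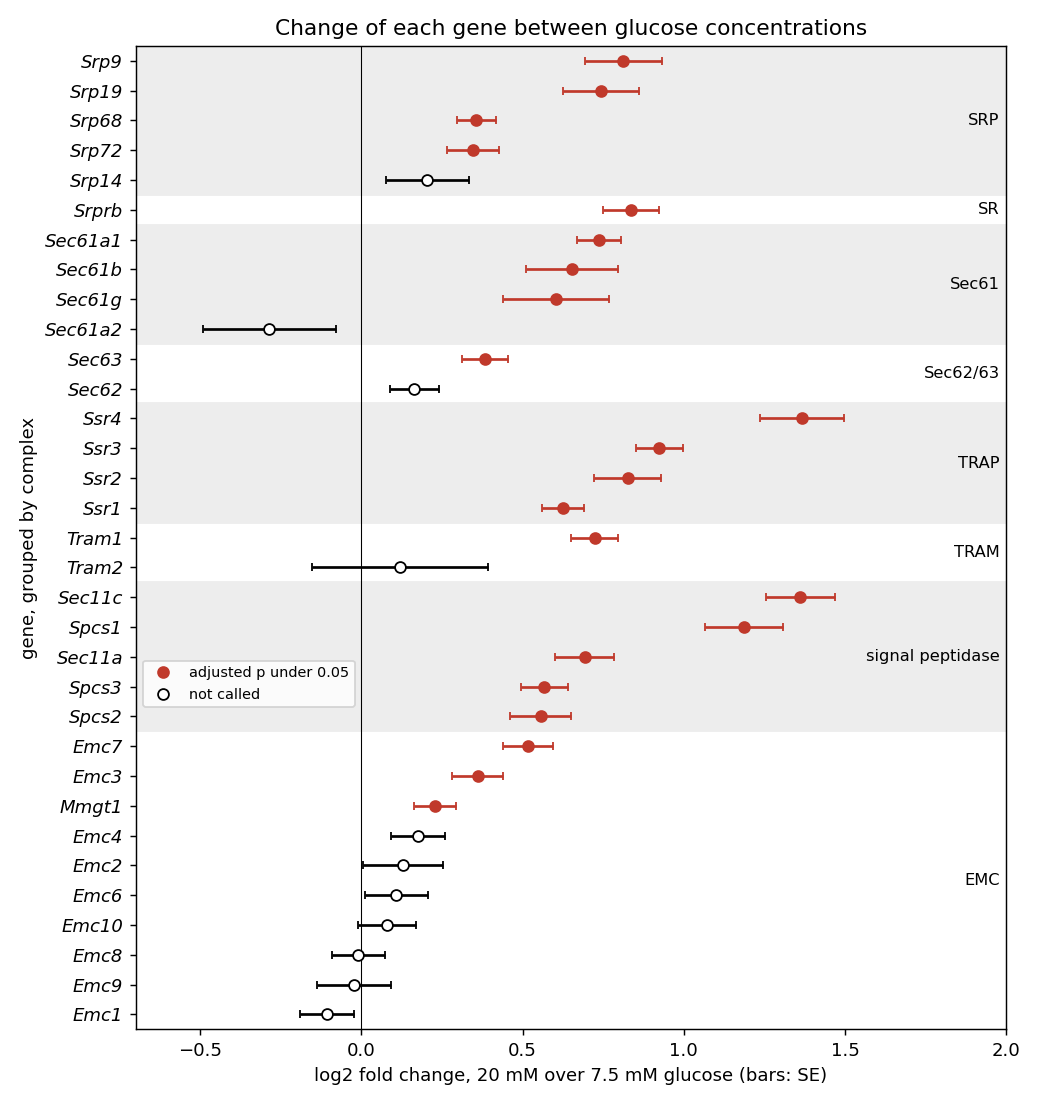
Log2 fold change of each of the 33 genes, 20 mM over 7.5 mM glucose (horizontal axis), with bars of 1 standard error from the edgeR fit, grouped by complex (vertical axis). Filled red points passed an adjusted p under 0.05 and open points did not. All TRAP and signal peptidase points are red and above 0.5, while 7 of 10 EMC points are open and lie between -0.11 and 0.18.

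Of the 10 EMC genes, 3 rose. Emc7, a subunit with a luminal domain, was at 138, 146, 136 and 132 CPM in high and 93.1, 109, 90.7 and 92.5 CPM in low glucose. The groups did not overlap and the rise was 1.43-fold (adjusted p = 0.00083, edgeR). Emc3, part of the membrane-inserting core, rose 1.28-fold from 33.3 ± 2.98 to 42.8 ± 2.39 CPM (adjusted p = 0.00765, edgeR). Mmgt1, which encodes the membrane subunit EMC5, was at 48.1, 49.5, 45.7 and 44.7 CPM in high and 41.4, 37.8, 40.7 and 40.6 CPM in low glucose. Its groups did not overlap, but its 1.17-fold rise was close to the threshold (adjusted p = 0.0253, edgeR) and was not called with library size alone (0.184), without a filter on low counts (0.0658), or on leaving out replicate 1 or 2 of the high or 3 or 4 of the low glucose group (0.058 to 0.0819).

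The other 7 EMC genes were not called, and in each the groups overlapped. Emc10, a luminal subunit and the most abundant EMC transcript per gene length, was at 151, 161, 152 and 146 CPM in high and 128, 167, 134 and 147 CPM in low glucose. The highest value of all was a low glucose library, and the log2 fold change was 0.08 ± 0.09 (SE, adjusted p = 0.561, edgeR). Emc6, which forms the inserting core with Emc3, had 0.11 ± 0.10 (SE), and Emc4, beside that core, 0.18 ± 0.08 (SE).

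Emc2, the cytosolic scaffold, was at 30.6, 36.3, 35.2 and 30.8 CPM in high and 28.1, 38.4, 25.3 and 29.6 CPM in low glucose. The spread within each group was wider than the distance between their means (log2 fold change 0.13 ± 0.12, SE). Emc1, the largest luminal subunit, had a log2 fold change of -0.11 ± 0.08 (SE, adjusted p = 0.397, edgeR), and is uncertain because it shares 29.3% of its exon bases with a non-coding gene on the other strand and 1.63% with the highly counted Ubr4 on its own. Without low glucose replicate 2 the count of EMC genes that rose was 5, with Emc2 (adjusted p = 0.0449) and Emc4 (adjusted p = 0.0376) added, and without both libraries numbered 4 it was 1, Emc7.

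Levels were compared between genes only per gene length, with the authors' FPKM (fragments scaled to gene length and library total). That length covers all annotated exons of a gene, so genes with long untranslated or unused exons read low. In low glucose Sec61b had the highest level of the 33 genes, at 115 ± 25.6 FPKM, and Tram2 the lowest, at 0.429 ± 0.184 FPKM. TRAP levels in low glucose were 89.98 ± 11.9 FPKM for Ssr2, 72.8 ± 3.18 FPKM for Ssr3, 65.3 ± 12.6 FPKM for Ssr4 and 28.3 ± 0.833 FPKM for Ssr1, whose listed length of 10431 bases is the longest of the 33. Ssr2 was above Ssr3 and Ssr4 in each low glucose library, while Ssr3 and Ssr4 lay within their spread.

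In high glucose the order within TRAP changed, with Ssr4 at 171 ± 14.8 FPKM, Ssr2 at 162 ± 13.3 FPKM and Ssr3 at 140 ± 6.55 FPKM. Ssr4 was above Ssr2 in each high glucose library, by less than the SD of either. The signal peptidase subunit Spcs1 went from 62.97 ± 9.85 to 145 ± 16.0 FPKM and so reached the level of Spcs3, at 141 ± 7.69 FPKM in high and 94.0 ± 4.22 FPKM in low glucose. EMC genes ranged on this scale from 3.92 ± 0.463 FPKM (Emc9) to 48.2 ± 5.82 FPKM (Emc10) in low glucose.

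**Figure D3:**
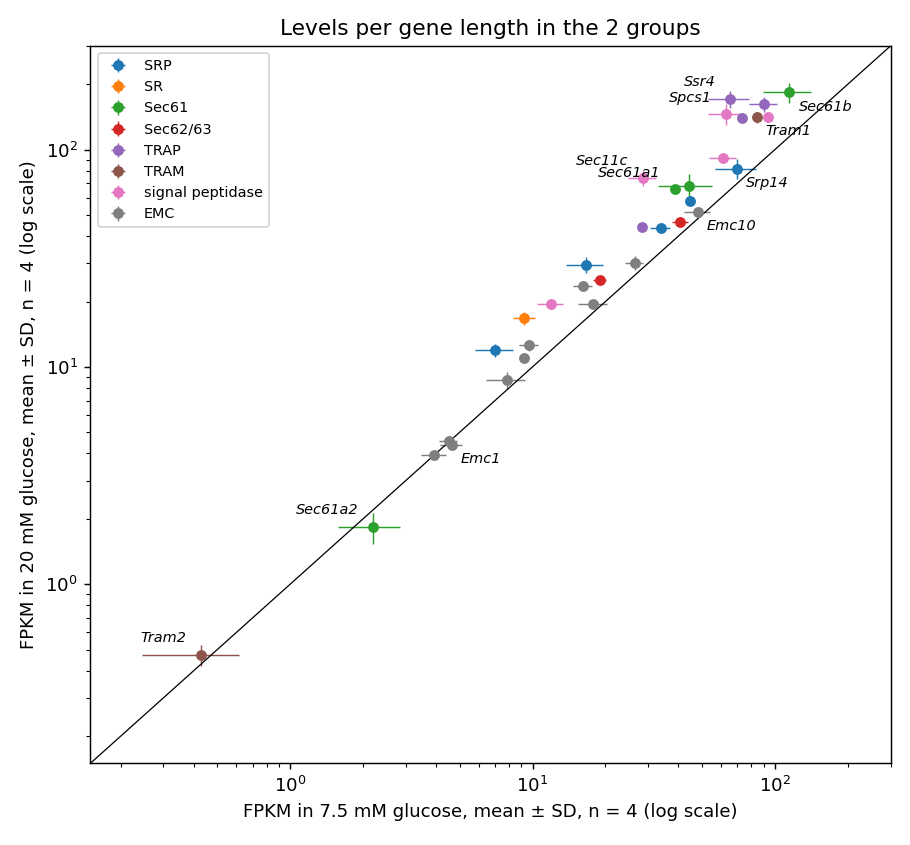
Levels of the 33 genes per gene length in 7.5 mM glucose (horizontal axis) and 20 mM glucose (vertical axis), as the authors' FPKM on log scales, with points at the mean of 4 libraries and bars of 1 SD, coloured by complex. The diagonal marks equal levels. Sec11c, Ssr4 and Spcs1 lie farthest above it, and Emc1, Emc8 and Emc9 lie on or close to it. Sec61a2 lies below it, at a mean of 1.84 FPKM in 20 mM and 2.21 FPKM in 7.5 mM glucose.

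Of the 8 groups, 4 hold a pair of paralogs that can take the same place in their complex or step, and the plain ratio of 2 genes within a library does not depend on how libraries are scaled. The log2 ratios tested had 0.5 CPM added to each gene, so for genes with few counts they depend on it slightly. With 0.1 CPM added, the Sec61a2 to Sec61a1 difference between groups was -0.987 in place of -0.977. The Sec11c to Sec11a ratio of CPM was 2.29, 2.66, 2.70 and 2.54 in the high and 1.66, 1.64, 1.60 and 1.503 in the low glucose libraries. All high glucose libraries were above all low glucose libraries, and the mean log2 ratio, with 0.5 CPM added to each gene, was 1.34 ± 0.11 against 0.67 ± 0.07 (SD, n = 4). The 2-sided exact permutation test gave p = 0.0286, the smallest it can give with 4 against 4 libraries, and 0.0571 adjusted over the 4 ratios, which does not pass. To pass after adjustment, more of the 4 ratios would have had to reach that smallest p, so this outcome does not measure the size of the shift. In every high glucose library the balance lay further toward Sec11c than in any low glucose library, although both genes rose.

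The Sec61a2 to Sec61a1 ratio was 0.0155, 0.0167, 0.0216 and 0.0225 in the high and 0.0385, 0.0268, 0.0531 and 0.0358 in the low glucose libraries, with no overlap. Its exact permutation p was again the smallest possible (0.0286, adjusted 0.0571), which does not pass, with the same limit. This ratio carries the uncertainty of Sec61a2, whose exons overlap Nudt5. The Tram2 to Tram1 ratio overlapped between groups (mean log2 ratio -6.94 ± 0.22 in high and -6.38 ± 0.49 in low glucose, SD; exact permutation p = 0.0857, adjusted 0.114). Emc8 and Emc9 encode alternative subunits at the same position, and their ratio was level, with mean log2 ratios of -1.52 ± 0.07 in high and -1.51 ± 0.05 in low glucose (SD; exact permutation p = 0.857). This ratio is uncertain too, since Emc8 shares 5.13% of its exon bases with Gm27021 on its own strand and 2.45% with Cox4i1 on the opposite strand. Cox4i1 had 29452 counts over all libraries, against 4986 for Emc8.

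**Figure D4:**
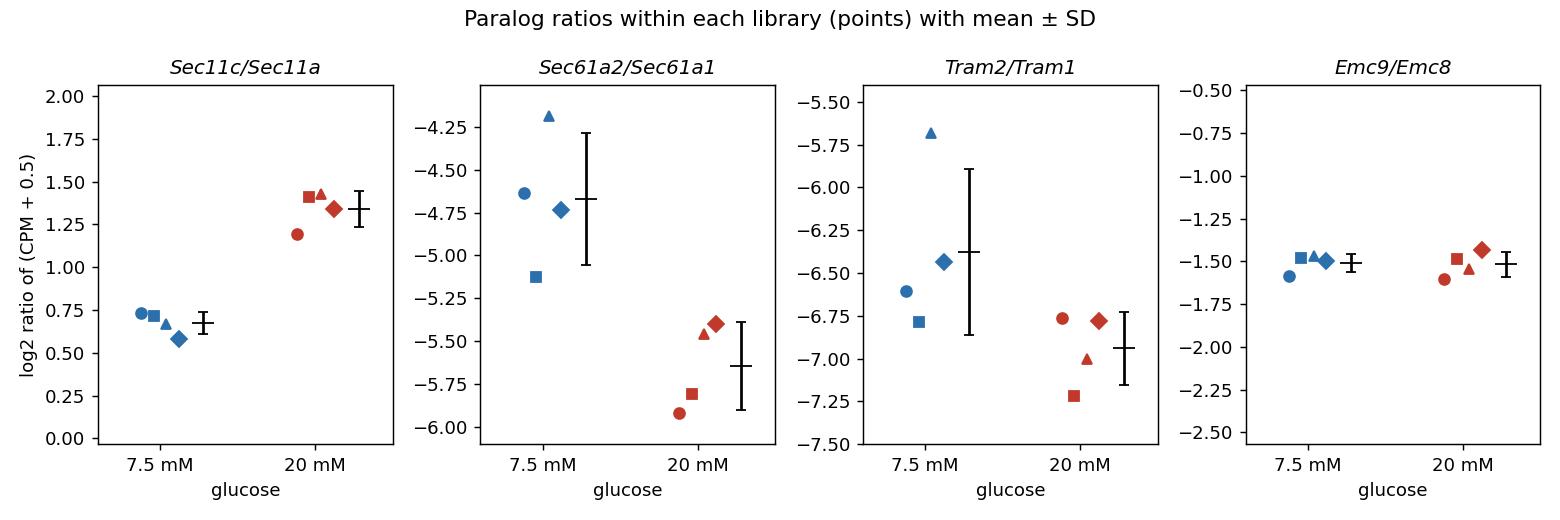
Log2 ratios of paralog levels, from (CPM + 0.5), within each library (vertical axis, the same span in each panel) for 7.5 mM and 20 mM glucose (horizontal axis). Points are libraries, with the shape giving the replicate number, and bars give the mean ± SD of 4 libraries. The Sec11c to Sec11a and Sec61a2 to Sec61a1 ratios do not overlap between groups, and the Emc9 to Emc8 ratio does.

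Other genes of targeting and insertion, from a list that leaves out the 33, were also measured. Of 27 tested, 14 rose and 13 were not called in edgeR, again against 13.1% of all genes that rose, and the median log2 fold change was 0.27. With the replicate block 18 rose, as did 18.9% of all genes, the additions being Srp54a, Get4, Tmco1 and Tmem147 (adjusted p = 0.013, 0.016, 0.00875 and 0.0107). H13, which encodes signal peptide peptidase, the enzyme that clears cut signal peptides, rose 2.21-fold from 123 ± 3.69 to 272 ± 6.69 CPM (adjusted p = 2.86e-06, edgeR). All 4 luminal partners of the channel rose, among them Hyou1, a chaperone of the BiP system (1.82-fold), and Hspa5, which encodes BiP itself (1.73-fold). Of the SRP54 genes and the receptor's α subunit, Srp54c and Srpr rose, but Srp54a, Srp54b and Srp54c are near-identical copies whose reads may have been split.

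Tail-anchored proteins, which lack a signal peptide, reach the ER by a separate set of factors, and 1 of its 7 measured genes, Ubl4a, rose (1.27-fold), a share near the 13.1% of all genes, with a median log2 fold change of 0.01 over the list. With the block 2 of 7 rose, Get4 being the other. Neither of the 2 nascent chain factors was called in edgeR. Of 7 genes of the multipass translocon, which acts with Sec61 on proteins with many membrane spans, 3 rose, Nomo1 1.53-fold, Ccdc47 1.21-fold and Rab5if 1.21-fold, and with the block 5 of 7 did, with Tmco1 and Tmem147 added. Tmem208, a factor of a further targeting route, rose 1.72-fold. Both ribosome-binding ER proteins rose, Rrbp1 1.60-fold and Ckap4 1.58-fold.

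Acinar cells make large amounts of secreted enzymes, and their marker share moved with the groups, so the values that bear on the 22 genes that rose were read out. Over the acinar markers the median log2 fold change was 0.68. Of 22 tested markers 1 rose, and 14 did with the replicate block. High glucose replicates 2 and 3 held 0.460% and 0.482% of counts in acinar markers, less than low glucose replicates 1 and 4 at 1.16% and 1.55%. Between those 4 libraries the median log2 difference over the 22 genes was 0.77, against 0.67 for all 8 libraries. Those 4 include high glucose replicate 2 and leave out low glucose replicate 2. These 2 libraries were the highest of their groups for 20 and 25 of the 33 genes, so the size of the difference also depends on that choice. This is a description, since the 22 genes were chosen because they rose and their direction here follows from that choice. With the acinar share as a covariate in edgeR 22 of the 33 genes rose. Without both libraries numbered 4, which held the most acinar counts, 19 rose, and 22 with the block.

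**Figure D5:**
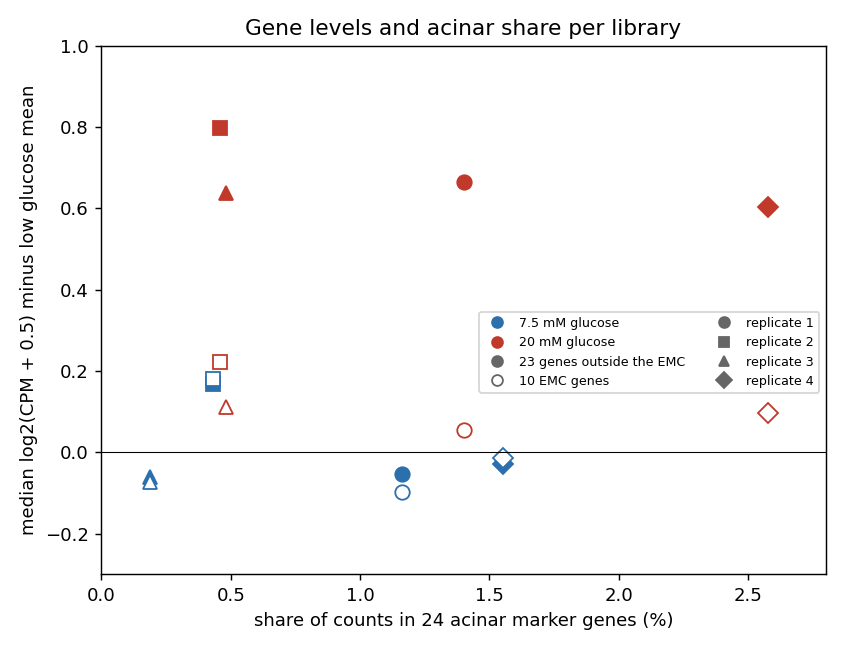
Median level over the 23 genes outside the EMC (filled) and the 10 EMC genes (open) in each library, as log2(CPM + 0.5) minus the low glucose mean (vertical axis), against the share of counts in 24 acinar marker genes in percent (horizontal axis). Red is 20 mM and blue 7.5 mM glucose, with the shape giving the replicate number. The filled red symbols lie between 0.60 and 0.80 and the filled blue ones between -0.06 and 0.17, near 0 because the low glucose mean was subtracted. Acinar shares run from 0.460% to 2.58% for red and from 0.187% to 1.55% for blue symbols, so they overlap only in part. The part of the acinar share in these levels was not tested.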

How the data were processed

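RNA of 8 islet libraries was sequenced, 4 per group. NEBNext Ultra reagents were used for library preparation, per the labels' protocols. The submitters' processing notes name STAR 2.5, HTSeq 2, DESeq2 (no version) and GRCm38, with no order. How strand and multiply mapped reads were handled, and which annotation was counted, is not given in the sources used here. Per the file headers, the deposited table holds the authors' raw read count per gene and library. It also holds a deposited signal (each count over its library's size factor) and the authors' FPKM. From the authors' comparison, deposited as log2 fold changes with a p-value each, only the calls at adjusted p under 0.05 were used. Of the 33 genes, 32 have the same coordinates in GENCODE M21.

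The test was edgeR 4.0.16 in R 4.3.3 on the counts (TMM scaling, filterByExpr with minimum count 10 and minimum total 15, group as the only term). A fold change sets high against low glucose, and its standard error is its log2 value over the square root of F. Alternatives were other scalings, no filter, DESeq2 1.42.0, limma-voom 3.58.1, the acinar share as a covariate, a replicate block and each library left out. Leaving out both libraries numbered 4 was added after the data were seen. Ratios were compared by exact permutation in scipy 1.17.1. The 33 genes, the lists and the tests were chosen with earlier results of these data known. All 33 genes are named, and of the other targeting and insertion genes up to 4 per list that rose, with the smallest adjusted p. Genes that passed only with the block and the SRP54 copies are named as well. Same-number libraries deviated together from their group means (correlations over all tested genes of 0.101, 0.449, 0.404 and 0.475). Libraries of unlike numbers had -0.367 to 0.207, so the first pair did not stand out from them. The numbers were taken as pairs in the block and in the counts of pairs, although the labels do not say what they stand for. The main test and the ratio tests do not use the pairs. No library was a copy of another (chi-square per gene at least 14.1). A count of 3, taken as the floor, corresponds to 0.114 to 0.161 CPM and covers counting error only. The pipeline was tested on simulated counts of this comparison with 200 changed genes. It tested 15249 genes and recovered 43.3% of 1.5-fold, 67.2% of 2-fold and 90.9% of 4-fold changes, and 4 of its 138 calls were false. In the data many more genes were called (2023 higher and 1831 lower), and the adjusted threshold depends on how many genes change. The recovered shares therefore do not measure how often the main test misses a change.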

Additional observations from a re-analysis of the deposited data

Results flagged for a closer look

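A library whose gap to its nearest neighbour took a larger part of its group's range than Dixon's 95% critical value for 4 samples allows was found in 6 of 74 groups of values examined, where chance gives about 1 in 20. All 6 were high values of a library numbered 2. In low glucose replicate 2, Sec62 stood at 203 CPM against 172 to 176 CPM in the others (gap share 0.886), Emc7 at 109 against 90.7 to 93.1 CPM (0.871), Spcs2 at 317 against 243 to 255 CPM (0.834) and Srp9 at 119 against 84.1 to 89.9 CPM (0.833). In high glucose replicate 2, Ssr4 stood at 607 against 504 to 514 CPM (0.904) and Srp14 at 115 against 91.5 to 94.8 CPM (0.863). Over the 33 genes, low glucose replicate 2 lay a median of 0.23 (log2) above the rest of its group, against 0.03 over all genes tested. High glucose replicate 2 lay 0.11 above, against 0.01. These gaps were larger for genes with a shorter listed length, with Spearman's rho across the 33 genes of -0.60 in low and -0.65 in high glucose. Genes of 1 library share its depth and preparation, so these correlations only describe the libraries, and the part of gene length in the results was not tested.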

How the results depend on the processing

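The count of genes that rose was 20 to 26 of 33 in every alternative run except that without both libraries numbered 4 (19), and none fell in any. Leaving out 1 library gave 20 to 26, the highest without low glucose replicate 2. Within the EMC 2 to 5 genes rose when 1 library was left out, and 1 without both libraries numbered 4. Of Sec62 and Sec63, both (2) rose with the replicate block, and 1 to 2 with 1 library left out. Over all genes, without both libraries numbered 4 the count higher was 1285 and the count lower 999, and with the replicate block 2862 were lower. With library size alone 10.4% of all genes rose and 37.8% of calls were higher, against 52.5% with TMM, while 20 of the 33 genes rose and none fell. The block changed no member's call other than those of Srp14 and Sec62.

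Directions that changed were those of genes near 0. With the acinar share as a covariate Emc8 had a log2 fold change of 0.0232 and Emc9 of 0.0177. With 1 library left out, the log2 fold change ranged from -0.00693 to 0.452 for Tram2, from -0.0463 to 0.0495 for Emc8 and from -0.0861 to 0.048 for Emc9, and the difference in the Emc9 to Emc8 log2 ratio from -0.0375 to 0.019. The cause was not tested. In a comparison of 3 against 4 libraries the exact test cannot go below p = 0.0571, so leaving out libraries says nothing about the calls of the ratios. At 39 or more counts per library, counting error was widest for Tram2, the gene with the fewest counts.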
